A study of Mus musculus with 32 samples.

Results

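The AP-1 and immediate early factors followed here are the Jun family (Jun, Junb, Jund), the Fos family (Fos, Fosb, Fosl1, Fosl2), Egr1, Myc and Klf10. Every probe set annotated to 1 gene symbol among these 10 genes was taken, which gave 14 probe sets of the 45037 on the Affymetrix mouse array that are not controls. Probe sets above 5.52, the median over the whole table, on 8 or more of the 32 arrays were kept, which left 13 of the 14 and 9 of the 10 genes. The single probe set of Fosb was not kept. Jun, Jund, Fosl1 and Fosl2 have 2 probe sets each, and each gene stands below by its leading probe set, the one of higher mean over the 24 arrays of total and fractionated RNA. Levels are deposited RMA values on the log2 scale, and because probe sets differ in how brightly they hybridize, levels were compared between samples of 1 gene and not between genes.

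AP-1 is a dimer of a Jun protein with a Fos, Jun or ATF protein, joined by leucine zippers, which binds a short DNA motif in the control regions of many genes. Jun, Fos, Egr1 and Myc are classical immediate early genes: growth factors and stress switch on their transcription through kinase cascades without new protein synthesis, and their mRNAs and proteins are short-lived. Klf10 was first described as a TGFβ-inducible early gene, and AP-1 proteins cooperate with Smad proteins in the transcriptional response to TGFβ. In mammary epithelial cells these factors are known for their part in proliferation and in the epithelial to mesenchymal transition.

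NMuMG is an epithelial cell line from normal mouse mammary gland, kept in medium with insulin and serum. E1KD is a derivative line, formerly called SH14, in which hnRNP E1, an RNA-binding protein encoded by Pcbp1, is knocked down; it is 1 line, so that the knockdown and other differences between the lines cannot be told apart. Cells of both lines were untreated or treated with 5 ng/ml TGFβ2 for 24 h, and RNA was taken from whole cells (total), from the pooled monosomal fractions of a sucrose gradient, which hold mRNA free of ribosomes or with a single one, and from the pooled polysomal fractions, which hold mRNA loaded with several ribosomes. This gave 24 arrays of 12 conditions. A further 8 arrays of 4 conditions held RNA precipitated with an antibody to hnRNP E1, or with IgG, from cytosolic extracts of untreated or TGFβ-treated NMuMG cells.

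Each condition had 2 arrays. The labels call them biological replicates and name no culture of origin, and the p-values measure the spread between these arrays, which may be technical. Pcbp1 read 13.1 in total RNA of untreated NMuMG cells and 10.8 in that of untreated E1KD cells, and 9.44 in TGFβ-treated E1KD cells, the lowest of the total RNA conditions. Of 9 epithelial marker genes 8 were kept, and of 7 mesenchymal ones all 7. In untreated total RNA each mesenchymal marker read higher in E1KD than in NMuMG cells, and each epithelial marker kept read lower. Fn1 read 9.64 in NMuMG and 13.03 in E1KD cells, and Ocln 9.46 and 6.36. Several epithelial markers lay close in the lines: Krt8 read 14.20 and 14.14, Krt18 14.35 and 14.30, Epcam 6.10 and 6.04, and Cldn3 6.16 and 6.04. Replicates of these conditions differed by a median of 0.09 in NMuMG and 0.10 in E1KD cells. Snai1, a mesenchymal marker, read 4.95 and 5.14, under 5.52, the cut-off for low values. These differences were not tested. The paper describes the epithelial to mesenchymal transition of E1KD cells as constitutive. Of 4 leukocyte and 3 endothelial markers 2 and 1 were kept. Ptprc stayed at or under 4.94 and Pecam1 at or under 5.86, but Cd3e reached 6.83, Kdr 6.96 and Cd68 9.46. Cd68 read 6.58 in total RNA of untreated NMuMG and 8.31 in that of untreated E1KD cells, and the part of such markers in the results was not tested. Replicates correlated with r from 0.974 to 0.998 across the probe sets kept, lowest in the NMuMG monosomal pool after TGFβ. For 2 of the 4 hnRNP E1 arrays the title and the sample description name different treatments, and these arrays are treated apart below. The deposited values carry no detection calls, and in bulk RNA fewer cells of a type and less RNA per cell cannot be told apart.

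Upstream stretches of Jun, Fosl2 and Fos are shown because these were the members with a promoter in the RefSeq table whose polysome association responded differently in the 2 lines. The table matched 6 of the 10 genes (Jun, Junb, Jund, Fos, Fosb and Fosl2). Each stretch holds the 120 bases before the gene's start in GRCm38.p6, for Jun at chr4:95052223-95052342 (minus strand), for Fosl2 at chr5:32136352-32136471 (plus strand) and for Fos at chr12:85473770-85473889 (plus strand). Capitals mark a Jun-type variant of the AP-1 motif (TGACATCA) and an Egr1-type motif (GCGGGGGCG).
Jun: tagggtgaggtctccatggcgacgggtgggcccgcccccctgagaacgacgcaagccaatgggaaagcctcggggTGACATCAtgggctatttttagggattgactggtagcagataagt
Fosl2: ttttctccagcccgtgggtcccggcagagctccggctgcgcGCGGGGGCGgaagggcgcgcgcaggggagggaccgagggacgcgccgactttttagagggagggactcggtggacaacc
Fos: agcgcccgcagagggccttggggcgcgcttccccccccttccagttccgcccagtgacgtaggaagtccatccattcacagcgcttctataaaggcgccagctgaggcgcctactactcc
Jun carried TGACATCA from base -45 to base -38, a motif present in 2.93% of all 32851 promoters of the table within 250 bases upstream on either strand. Fosl2 carried GCGGGGGCG from -79 to -71, and Fosb did so from -50 to -42, a motif in 2.57% of all promoters. None of the 6 promoters held the AP-1 motif TGANTCA (6.75% of all), the cAMP response element TGACGTCA (1.55%), the E-box CACGTG (6.02%), the Egr1 motif GCGTGGGCG (0.536%) or a CArG box (1.47%) in these 250 bases. The GC box GGGCGG, which overlaps GCGGGGGCG in Fosl2 and Fosb, was found in Jun, Fosl2, Fosb and Fos and in 32.7% of all promoters. The 120 bases before the start of Fosb in the promoter table, chr7:19310046-19310165 (minus strand), overlap the annotated gene, chr7:19302696-19310118. Its Egr1-type motif at -50 to -42 lies within that gene. A match of letters is a description of these windows.

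The first comparison asked how total RNA of each factor responded to TGFβ. In NMuMG cells Jun, Fosl2 and Klf10 rose and Egr1 and Fosl1 fell, while Junb, Jund, Fos and Myc did not pass the test. In E1KD cells Egr1, Junb and Klf10 rose and Jund fell. The fit shares 1 spread per probe set with the fraction arrays, whose replicates differed more than those of total RNA. With only the arrays compared, more members passed in NMuMG cells, as given below. A member that did not pass is thus not shown to be unchanged. Over all 12600 genes with a probe set kept, by the same choice of probe set, 3.46% rose and 2.95% fell in NMuMG cells, beside 3 and 2 of the 9 members. In E1KD cells 11.7% rose and 11.4% fell, beside 3 and 1 of 9. The median difference of the members was 0.40 in NMuMG cells and 0.21 in E1KD cells, with medians of 0.005 and -0.025 over all genes.

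**Figure D1:**
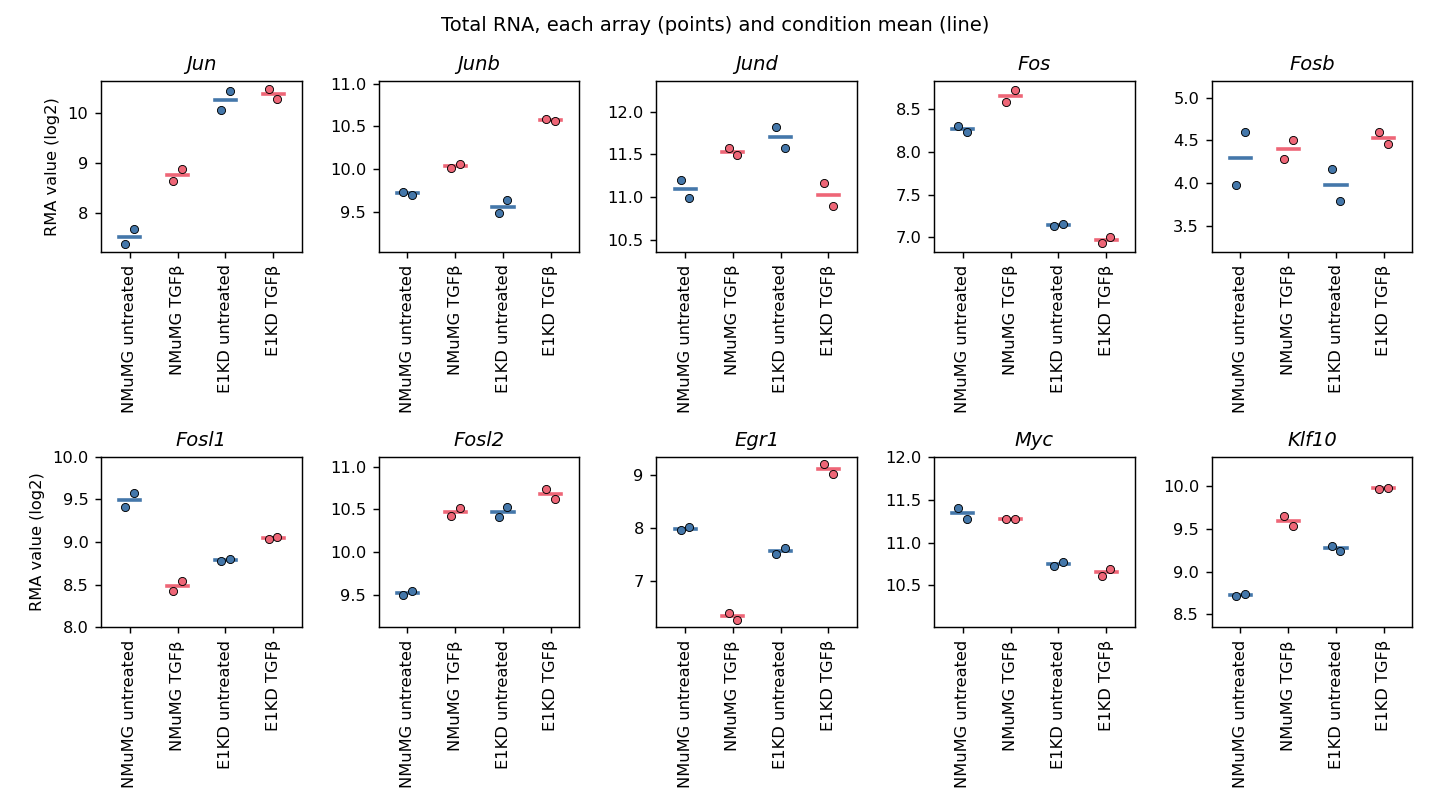
Total RNA level (RMA value, log2, vertical axes with their own range per gene) of the 10 factors in untreated (blue) and TGFβ-treated (red) NMuMG and E1KD cells. Points are arrays and lines are means of 2 arrays. Egr1 falls from 7.96 and 8.01 to 6.40 and 6.27 in NMuMG cells and rises from 7.51 and 7.62 to 9.19 and 9.02 in E1KD cells.

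Egr1, a zinc finger factor, moved in opposite directions in the 2 lines. Its total RNA read 7.96 and 8.01 in untreated NMuMG cells, 6.40 and 6.27 after TGFβ, 7.51 and 7.62 in untreated E1KD cells and 9.19 and 9.02 after TGFβ. The untreated arrays of both lines lay between the treated arrays of NMuMG, the lowest, and those of E1KD, the highest, and no condition overlapped another. TGFβ changed Egr1 by -1.65 in NMuMG cells (standard error 0.16, adjusted p = 4.53e-06 from limma), a 3.14-fold fall, and by 1.54 in E1KD cells (standard error 0.16, adjusted p = 3.09e-06), a 2.91-fold rise. The difference between the responses was 3.19 (standard error 0.22, adjusted p = 1.47e-07), the largest among the 9 members.

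Fosl1, a Fos relative without the long activation domain of Fos, fell in NMuMG cells. Its arrays read 9.41 and 9.57 untreated and 8.43 and 8.54 treated, and in E1KD cells 8.78 and 8.80 untreated and 9.04 and 9.06 treated. The change was -1.005 in NMuMG cells (standard error 0.11, adjusted p = 1.89e-05) and 0.26 in E1KD cells, which did not pass (adjusted p = 0.106), although the treated arrays of E1KD both lay above the untreated ones. The second probe set gave -0.82 in NMuMG cells and 0.61 in E1KD cells, and passed in both (adjusted p = 0.0228 and 0.0411). The responses differed by 1.26 (standard error 0.15, adjusted p = 4.19e-05) on the leading and by 1.43 on the second probe set (adjusted p = 0.00344).

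Jun rose in NMuMG cells from 7.38 and 7.67 to 8.64 and 8.88. In E1KD cells it read 10.06 and 10.44 untreated and 10.48 and 10.27 treated, so that the treated arrays overlapped the untreated ones and all 4 lay above every NMuMG array. The change was 1.24 in NMuMG cells (standard error 0.18, adjusted p = 0.000447) and 0.12 in E1KD cells (adjusted p = 0.722). The second Jun probe set did not show this contrast between the lines: it read 6.12 and 6.13 untreated and 7.09 and 7.39 treated in NMuMG cells, and 7.61 and 7.58 untreated and 9.34 and 9.14 treated in E1KD cells, a change of 1.11 and of 1.64, both past the test (adjusted p = 0.00264 and 2.75e-05). The interaction was -1.11 on the leading probe set (adjusted p = 0.0103) and 0.53 on the second (adjusted p = 0.313), so the call that the lines differ held on only 1 of the 2 probe sets, and it was lost when centred on Actb and Gapdh (-0.74, adjusted p = 0.258). On the leading probe set that call was lost when 1 of 4 arrays was left out in turn, the first untreated and second treated NMuMG replicates and the second untreated and treated E1KD replicates, with differences from -1.30 to -0.92 over all 8 arrays and adjusted p up to 0.064.

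Junb and Jund, relatives of Jun that form AP-1 dimers of the same kind, responded in E1KD cells in opposite directions. Junb rose there from 9.48 and 9.64 to 10.58 and 10.56, a change of 1.01 (standard error 0.14, adjusted p = 7.53e-05), and read 9.73 and 9.70 untreated and 10.01 and 10.06 treated in NMuMG cells, a change of 0.32 (adjusted p = 0.278). Jund fell in E1KD cells from 11.82 and 11.58 to 11.16 and 10.90, a change of -0.67 (standard error 0.17, adjusted p = 0.00788). In NMuMG cells Jund read 11.20 and 10.99 untreated and 11.57 and 11.49 treated, a change of 0.43 (adjusted p = 0.184). Neither pair of Jund arrays overlapped the other within a line. The interaction was 0.69 for Junb (standard error 0.20, adjusted p = 0.0322) and -1.11 for Jund (standard error 0.23, adjusted p = 0.00515). The Junb interaction did not pass when any 1 of the 8 arrays was left out (0.61 to 0.77, adjusted p up to 0.131). The second Jund probe set passed in neither line (-0.185 and -0.435) nor in the interaction (-0.25, adjusted p = 0.854). With each array centred on Actb and Gapdh the Jund fall in E1KD cells came to -0.04 (adjusted p = 0.854) and its interaction to -0.73 (adjusted p = 0.108), and without the first untreated or the second treated E1KD replicate the fall did not pass (-0.80 to -0.54 over the 4 arrays, adjusted p up to 0.0981).

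Klf10 rose in both lines. It read 8.71 and 8.74 untreated and 9.65 and 9.53 treated in NMuMG cells, and 9.30 and 9.24 untreated and 9.97 and 9.98 treated in E1KD cells. The changes were 0.86 (standard error 0.18, adjusted p = 0.00673) and 0.70 (adjusted p = 0.00901), and their difference was -0.16 (standard error 0.25, adjusted p = 0.828). Fosl2 rose in NMuMG cells from 9.49 and 9.54 to 10.42 and 10.51 and read 10.41 and 10.53 untreated and 10.74 and 10.62 treated in E1KD cells. Its change was 0.95 in NMuMG cells (standard error 0.24, adjusted p = 0.0244) and 0.21 in E1KD cells (adjusted p = 0.621), with an interaction that did not pass (-0.74, adjusted p = 0.195). The second Fosl2 probe set gave -0.05 and -0.22, and neither passed (adjusted p = 0.979 and 0.532). The Fosl2 call was lost without any 1 of the 4 NMuMG arrays (0.91 to 0.99, adjusted p up to 0.172). The Klf10 call in NMuMG cells was lost without either untreated or the first treated replicate (adjusted p up to 0.0828), and that in E1KD cells without the second untreated or either treated replicate (adjusted p up to 0.0653), while the differences ran from 0.80 to 0.93 and from 0.68 to 0.73.

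Fos and Myc did not respond past the test in either line. Fos read 8.30 and 8.23 untreated and 8.59 and 8.73 treated in NMuMG cells, and 7.13 and 7.16 untreated and 6.93 and 7.0 treated in E1KD cells, so that all NMuMG arrays lay above all E1KD arrays. Its changes were 0.40 (adjusted p = 0.368) and -0.18 (adjusted p = 0.603), although treated and untreated Fos arrays did not overlap within either line. Myc, which binds DNA as a dimer with Max, read 11.40 and 11.28 untreated and 11.28 and 11.28 treated in NMuMG cells, and 10.72 and 10.77 untreated and 10.61 and 10.69 treated in E1KD cells, with changes of -0.06 (adjusted p = 0.931) and -0.10 (adjusted p = 0.592). Fosb stayed between 3.79 and 5.63 over all 32 arrays, above the median of all values in 1 of them, and entered only the fit without the filter. There neither response of total RNA passed (0.105 and 0.55, adjusted p = 0.999 and 0.0911), and polysomal minus monosomal RNA was lower in untreated NMuMG cells (-0.54, adjusted p = 0.0301) and in TGFβ-treated E1KD cells (-1.04, adjusted p = 0.000335).

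**Figure D2:**
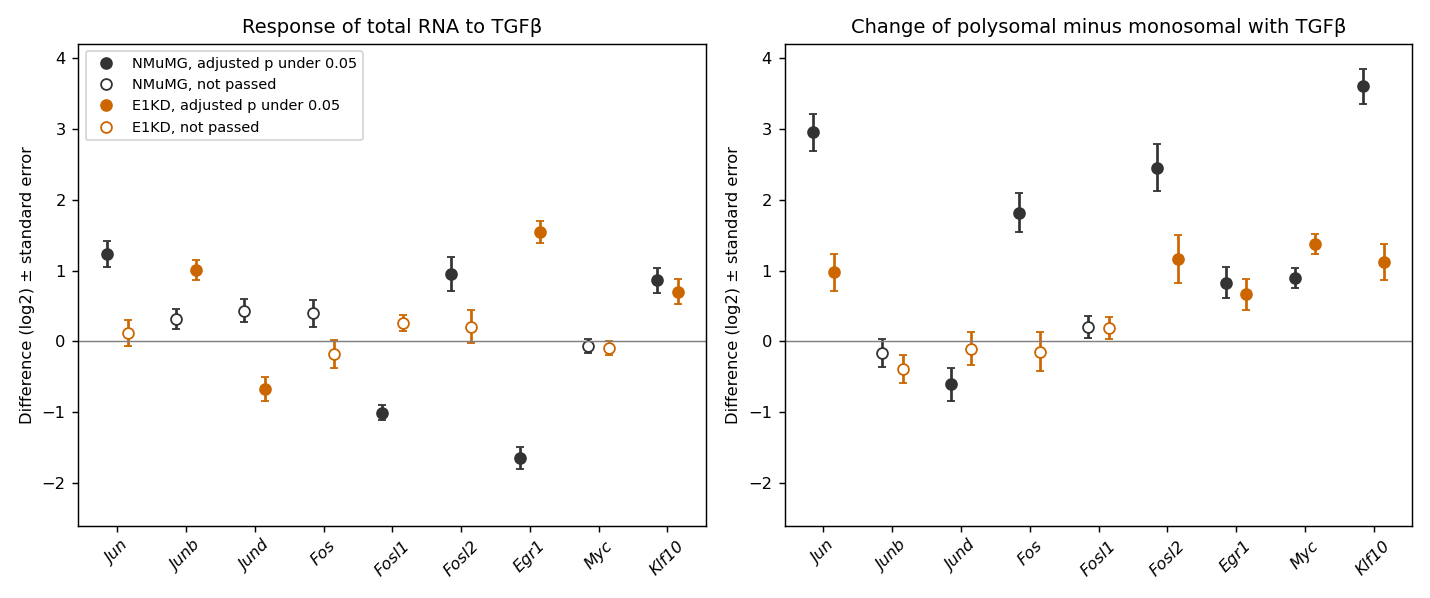
Change with TGFβ (log2, leading probe set, bars are standard errors of the limma fit, 2 arrays per condition) of total RNA on the left and of polysomal minus monosomal RNA on the right, for NMuMG (dark) and E1KD (orange) cells. Filled points have an adjusted p under 0.05. Egr1 lies at -1.65 in NMuMG and 1.54 in E1KD cells on the left, and Klf10 at 3.60 and 1.12 on the right.

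In the test of the difference between the responses, 6.32% of all genes had a higher and 6.83% a lower response in E1KD than in NMuMG cells, beside 3 (Egr1, Fosl1 and Junb) and 2 (Jun and Jund) of the 9 members.

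The second comparison set the 2 lines against each other. In untreated cells 4 members (Jun, Fosl2, Jund and Klf10) were higher and 3 (Fos, Fosl1 and Myc) were lower in E1KD than in NMuMG total RNA, where 17.8% of all genes were higher and 15.1% lower. Jun differed most, by 2.72 (standard error 0.18, adjusted p = 9.97e-09), a 6.61-fold higher level, and by 1.47 on its second probe set (adjusted p = 3.8e-05). Fosl2 was higher by 0.95 (adjusted p = 0.00537), Jund by 0.60 (adjusted p = 0.0106) and Klf10 by 0.55 (adjusted p = 0.0292), of which the Klf10 call was lost without any 1 of the 4 arrays (adjusted p up to 0.132) and the Jund call without the second NMuMG or the first E1KD replicate (adjusted p up to 0.114). Fos was lower by 1.12 (a difference of -1.12, standard error 0.19, adjusted p = 0.000309), Fosl1 differed by -0.70 (adjusted p = 0.000105) and Myc by -0.60 (adjusted p = 0.000229). The second Fosl2 probe set gave -0.30 (adjusted p = 0.33), so the direction for Fosl2 rests on the leading one. Centred on Actb and Gapdh, the Myc and Klf10 calls did not pass. Egr1 (-0.42, adjusted p = 0.0542) and Junb (-0.15, adjusted p = 0.486) did not pass.

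In TGFβ-treated cells 4 members (Egr1, Jun, Fosl1 and Junb) were higher and 3 (Fos, Myc and Jund) lower in E1KD cells, where 15.8% of all genes were higher and 14.5% lower. Egr1 was 6.82-fold higher, a difference of 2.77 (standard error 0.16, adjusted p = 1.45e-09), and Jun differed by 1.61 (adjusted p = 5.46e-06). Fos differed by -1.69 (standard error 0.19, adjusted p = 5.82e-06), a 3.24-fold lower level in E1KD cells. Fosl1, lower in untreated E1KD cells, was higher by 0.56 (adjusted p = 0.000858) in treated ones. Junb differed by 0.53 (adjusted p = 0.00842), Jund by -0.50 (adjusted p = 0.0335) and Myc by -0.63 (adjusted p = 0.000159). The Junb call was lost without the first treated replicate of either line (adjusted p up to 0.0601), and the Jund call without either treated NMuMG or the second treated E1KD replicate (-0.63 to -0.37, adjusted p up to 0.246). Centred on Actb and Gapdh, the difference was -0.04 for Jund and -0.17 for Myc, and neither passed.

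The third comparison asked where the mRNA of each factor lay between the monosomal and polysomal pools, and how TGFβ moved it. In untreated NMuMG cells 8 of the 9 members were lower in the polysomal pool and none was higher, where 43.9% of all genes were lower and 30.5% higher. In untreated E1KD cells 4 members (Jun, Junb, Fosl1 and Myc) were lower and 1 (Klf10) higher, beside 22.2% and 17% of all genes. In TGFβ-treated NMuMG cells Klf10 and Fos were higher and Junb and Fosl1 lower in the polysomal pool (29.3% of all genes higher, 25.9% lower). In TGFβ-treated E1KD cells Klf10, Fosl2 (on its leading probe set, the second being lower), Myc and Egr1 were higher and Junb and Fosl1 lower (34.8% of all genes higher, 30.6% lower). The polysome shift, which is how far TGFβ moved the polysomal minus monosomal difference, was positive past the test for 6 members in NMuMG cells (Klf10, Jun, Fosl2, Fos, Myc and Egr1) and negative for 1 (Jund), beside 41.3% and 33.8% of all genes. In E1KD cells it was positive for 5 (Myc, Fosl2, Klf10, Jun and Egr1) and negative for none, beside 23.2% and 9.43%. The shift was lower in E1KD than in NMuMG cells for 4 members (Klf10, Jun, Fos and Fosl2) and higher for none, beside 24.7% and 15.3% of all genes. Calls were thus common over the array in these comparisons.

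**Figure D3:**
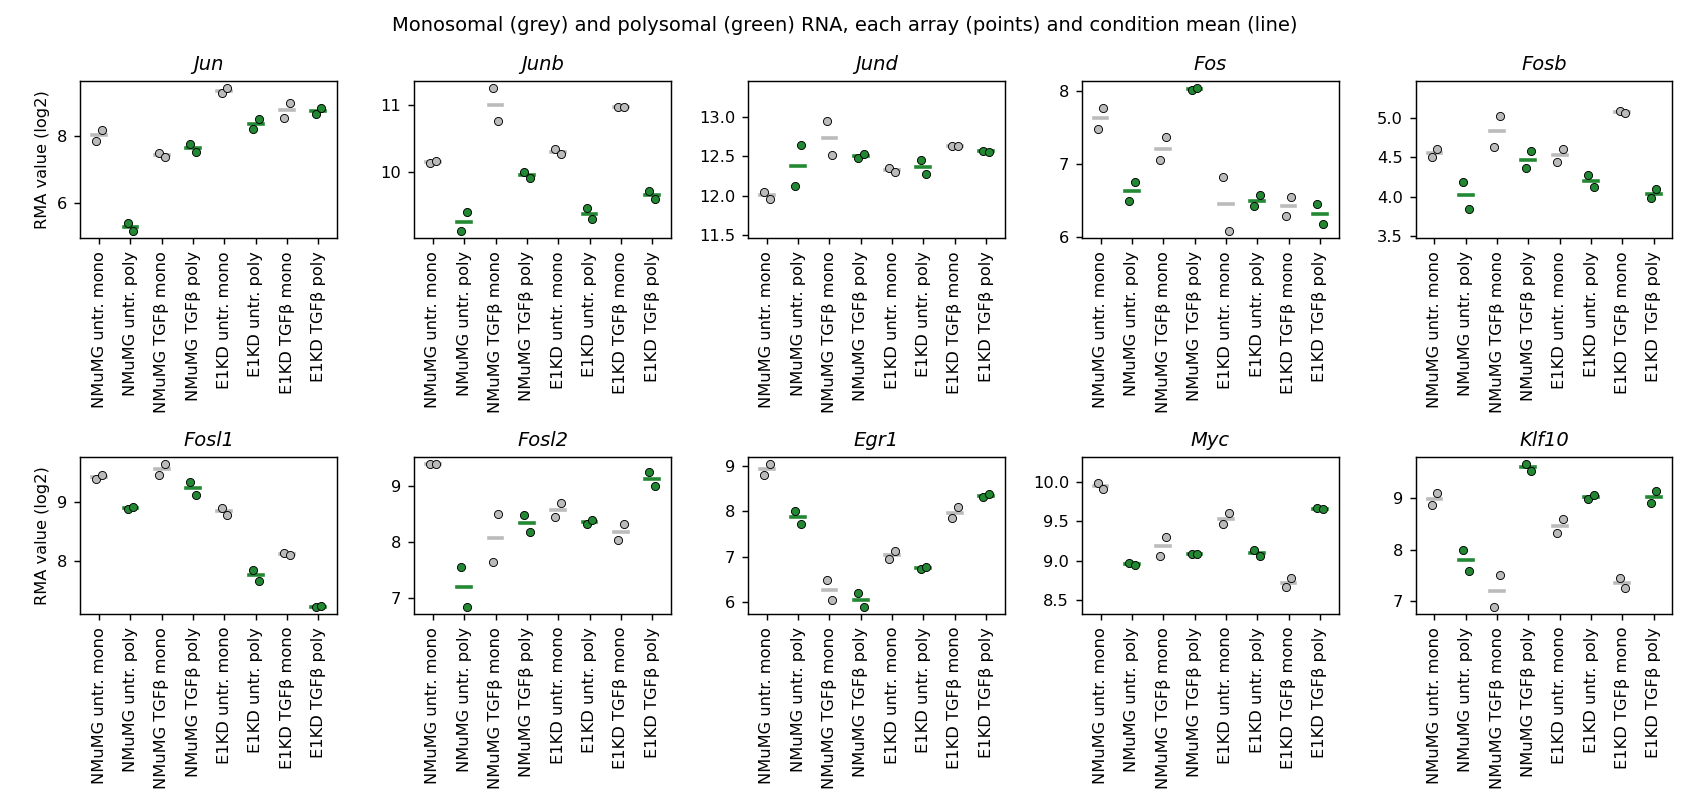
Level (RMA value, log2, vertical axes with their own range per gene) of the 10 factors in the monosomal (grey) and polysomal (green) pools of untreated and TGFβ-treated NMuMG and E1KD cells. Points are arrays and lines are means of 2 arrays. In NMuMG cells Klf10 is lower in the polysomal than in the monosomal pool without TGFβ (7.99 and 7.59 against 8.86 and 9.10) and higher with it (9.67 and 9.53 against 6.88 and 7.50).

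Klf10, a zinc finger repressor, had the largest shift of the 9 members in NMuMG cells, while in E1KD cells Myc (1.38) and Fosl2 (1.17) exceeded it. In untreated NMuMG cells it read 8.86 and 9.10 in the monosomal and 7.99 and 7.59 in the polysomal pool, and after TGFβ 6.88 and 7.50 in the monosomal and 9.67 and 9.53 in the polysomal pool. The order of the pools was thus turned over, with no overlap of arrays in either treatment. In E1KD cells Klf10 read 8.33 and 8.60 (monosomal) and 8.99 and 9.06 (polysomal) untreated, and 7.44 and 7.25 and then 8.91 and 9.15 treated, so that the polysomal arrays were higher in both treatments. Its shift was 3.60 in NMuMG cells (standard error 0.25, adjusted p = 8.09e-09), a 12.1-fold change of the ratio, and 1.12 in E1KD cells (standard error 0.25, adjusted p = 0.00452), and the 2 shifts differed by -2.48 (standard error 0.36, adjusted p = 0.000102). The higher polysomal level in untreated E1KD cells (0.56, adjusted p = 0.0219) was lost without the first monosomal or either polysomal replicate (0.42 to 0.69, adjusted p up to 0.175).

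Jun, Fosl2 and Fos also shifted less in E1KD than in NMuMG cells. Jun read 7.86 and 8.19 in the monosomal and 5.40 and 5.15 in the polysomal pool of untreated NMuMG cells, and 7.49 and 7.39 and then 7.76 and 7.53 after TGFβ. The 2 untreated polysomal arrays were the lowest of the 24 for Jun and the only ones under 5.52, the cut-off for low values. The sizes of its NMuMG shift and of the difference between the lines rest on these low readings. After TGFβ the polysomal arrays lay just above the monosomal ones. In E1KD cells Jun read 9.30 and 9.44 (monosomal) and 8.23 and 8.52 (polysomal) untreated and 8.56 and 8.99 and then 8.67 and 8.84 treated, where the pools overlapped. The shift was 2.96 (standard error 0.26, adjusted p = 7.87e-08) in NMuMG cells and 0.97 (adjusted p = 0.0123) in E1KD cells, and the difference was -1.98 (standard error 0.37, adjusted p = 0.000745). The second Jun probe set gave 0.98 in NMuMG cells (adjusted p = 0.00685) and 0.33 in E1KD cells (adjusted p = 0.411), and its difference of -0.65 did not pass (adjusted p = 0.229). The E1KD shift on the leading probe set was lost without the first replicate of the untreated polysomal or the treated monosomal pool (0.76 to 1.19, adjusted p up to 0.0598).

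Fosl2 read 9.39 and 9.40 in the monosomal and 7.56 and 6.84 in the polysomal pool of untreated NMuMG cells, and 7.65 and 8.50 and then 8.48 and 8.19 after TGFβ, where the pools overlapped. In E1KD cells it read 8.45 and 8.70 (monosomal) and 8.32 and 8.40 (polysomal) untreated and 8.04 and 8.33 and then 9.26 and 9.01 treated. Its shift was 2.46 (adjusted p = 8.09e-06) in NMuMG and 1.17 (adjusted p = 0.0175) in E1KD cells. The second Fosl2 probe set pointed the other way, with a shift of -1.07 in NMuMG cells (adjusted p = 0.00385) and -0.28 in E1KD cells (adjusted p = 0.483), so the direction of the Fosl2 shift depends on the probe set. It was also lower in the polysomal pool with TGFβ in NMuMG (-0.885, adjusted p = 0.00176) and in E1KD cells (-0.705, adjusted p = 0.00728), where the leading probe set gave 0.26 (adjusted p = 0.387) and 0.95 (adjusted p = 0.00247). The E1KD shift was lost without any 1 of 4 of its 8 arrays (1.02 to 1.31, adjusted p up to 0.0678). The difference between the lines on the leading probe set, -1.29 (adjusted p = 0.043), was lost without any 1 of 10 of the 16 arrays (-1.71 to -0.86, adjusted p up to 0.114).

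Fos, the partner of Jun in the prototypic AP-1 dimer, read 7.48 and 7.77 in the monosomal and 6.50 and 6.75 in the polysomal pool of untreated NMuMG cells, and 7.05 and 7.37 and then 8.02 and 8.04 after TGFβ. Like Klf10 it was lower in the polysomal pool without TGFβ (-1.0, adjusted p = 0.000274) and higher with it (0.82, adjusted p = 0.0021). In E1KD cells Fos read 6.83 and 6.08 (monosomal) and 6.42 and 6.57 (polysomal) untreated and 6.29 and 6.55 and then 6.45 and 6.18 treated, and the pools overlapped in both treatments. The shift was 1.82 (standard error 0.28, adjusted p = 2.36e-05) in NMuMG and -0.14 (adjusted p = 0.72) in E1KD cells, a difference of -1.97 (standard error 0.39, adjusted p = 0.00118).

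Myc and Egr1 shifted in both lines. Myc read 9.98 and 9.91 (monosomal) and 8.97 and 8.94 (polysomal) in untreated NMuMG cells and 9.06 and 9.30 and then 9.09 and 9.09 after TGFβ. In E1KD cells it read 9.47 and 9.60 (monosomal) and 9.13 and 9.06 (polysomal) untreated and 8.66 and 8.78 and then 9.67 and 9.65 treated, so that Myc was lower in the polysomal pool without TGFβ and higher with it there. Its shift was 0.90 (standard error 0.14, adjusted p = 3.53e-05) in NMuMG and 1.38 (adjusted p = 0.000111) in E1KD cells, a difference of 0.48 that did not pass (adjusted p = 0.0713). Egr1 read lower after TGFβ in both pools of NMuMG cells, a contrast that was not tested, from 8.81 and 9.05 to 6.48 and 6.05 in the monosomal and from 8.02 and 7.73 to 6.19 and 5.89 in the polysomal pool. In E1KD cells it read 6.94 and 7.13 (monosomal) and 6.72 and 6.77 (polysomal) untreated and 7.85 and 8.09 and then 8.31 and 8.38 treated. Its shift was 0.83 (adjusted p = 0.00335) in NMuMG and 0.66 (adjusted p = 0.0342) in E1KD cells, with a difference of -0.16 (adjusted p = 0.711). Polysomal minus monosomal Egr1 in NMuMG cells was -1.055 untreated and -0.225 with TGFβ. The treated arrays of both NMuMG pools, from 5.89 to 6.48, lay close to 5.52, the cut-off for low values. Whether such low readings narrowed the gap between the pools was not tested. After quantile normalization the NMuMG shifts came to 0.15 for Egr1 and 0.24 for Myc, and neither passed. The Egr1 shift in E1KD cells did not pass when any 1 of 6 of its 8 arrays was left out (adjusted p up to 0.122), nor did its higher polysomal level in treated E1KD cells (0.38, adjusted p = 0.0478) for 3 of 4 (adjusted p up to 0.277) or with the replicate block (adjusted p = 0.0534).

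Junb and, on its leading probe set, Fosl1 were lower in the polysomal pool in all 4 states of the cells, and neither shifted past the test. Junb read 10.13 and 10.16 (monosomal) and 9.11 and 9.40 (polysomal) in untreated NMuMG cells, 11.26 and 10.76 and then 10.00 and 9.91 after TGFβ, 10.34 and 10.27 and then 9.46 and 9.29 in untreated E1KD cells, and 10.98 and 10.97 and then 9.72 and 9.59 after TGFβ. Its polysomal minus monosomal differences ran from -1.32 to -0.89, with no overlap of arrays in any state, and after quantile normalization that of untreated NMuMG cells was -0.35 and did not pass (adjusted p = 0.0764). Fosl1 read 9.39 and 9.46 (monosomal) and 8.88 and 8.92 (polysomal) in untreated NMuMG cells, 9.47 and 9.65 and then 9.35 and 9.13 after TGFβ, 8.91 and 8.79 and then 7.86 and 7.67 in untreated E1KD cells, and 8.14 and 8.11 and then 7.23 and 7.24 after TGFβ. Its arrays did not overlap between pools either, and lay closest in TGFβ-treated NMuMG cells. The differences of Fosl1 were -0.53 and -0.32 in NMuMG cells without and with TGFβ and -1.08 and -0.89 in E1KD cells. The second Fosl1 probe set passed in untreated NMuMG cells alone (-0.70, adjusted p = 0.00557), with -0.22 in treated NMuMG cells and -0.165 and 0.005 in untreated and treated E1KD cells (adjusted p = 0.392, 0.579 and 0.985). In NMuMG cells the leading Fosl1 difference turned to 0.07 without TGFβ after quantile normalization and to 0.07 with TGFβ when centred on Actb and Gapdh, and neither value passed. The latter call was also lost without the second treated replicate of either pool (adjusted p up to 0.209). Jund read between 11.96 and 12.95 in all 16 fraction arrays; its shift of -0.61 in NMuMG cells (adjusted p = 0.0302) did not pass when centred on Actb and Gapdh (-0.15) or without any 1 of 5 of its 8 arrays.

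The study set fold limits for transcripts regulated in translation, applied here to each leading probe set: in NMuMG cells at least 2-fold more monosomal than polysomal RNA untreated, at least 2-fold more polysomal than monosomal RNA with TGFβ, at most a 2-fold rise of total RNA and at least a 5-fold change of the ratio. Klf10 was the 1 member that met all of them, with 2.28-fold, 5.31-fold, 1.82-fold and 12.1-fold, and 3.93% of all genes met them. Jun (7.75-fold) and Fosl2 (5.48-fold) passed the limit on the change of the ratio but reached 1.15-fold and 1.20-fold more polysomal than monosomal RNA with TGFβ, and Jun's total RNA rose 2.35-fold. In E1KD cells the limits ask for at least 2-fold more polysomal than monosomal RNA in both treatments. They also ask for at most a 2-fold rise of total RNA and a change of the ratio under 2-fold. No member met these limits, which 2.37% of all genes met. Klf10 had 1.47-fold more polysomal than monosomal RNA in untreated E1KD cells, and its ratio changed 2.18-fold, so it missed both limits. The study averaged raw signal, whereas means of log2 values were used here.

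The fourth comparison concerned RNA precipitated with hnRNP E1 from NMuMG cells. By their titles, the untreated hnRNP E1 arrays for Jun read 9.49 and 7.79 and the treated ones 7.61 and 9.56, while the IgG arrays read 7.54 and 7.59 untreated and 8.65 and 8.69 treated. The first untreated and the second treated hnRNP E1 arrays were thus close to each other, and so were the other two. The same pairs stood together for Egr1, at 7.63 and 7.61 and at 9.17 and 9.43, and for Klf10, at 10.27 and 10.28 and at 9.52 and 9.54. Klhl30, whose total RNA in NMuMG cells read 4.71 and 4.42 untreated and 9.29 and 9.38 treated, was at 10.48 and 10.10 in the first pair and at 7.15 and 7.26 in the second. Total RNA of Il33 read 10.33 and 10.40 untreated and 7.83 and 7.65 treated there. Il33 was at 7.96 and 8.09 in the first pair and at 10.82 and 10.76 in the second. In the IgG arrays Klhl30 read 5.53 and 5.44 untreated and 8.53 and 8.56 treated. Il33 read 10.94 and 10.98 and then 9.27 and 9.28. The descriptions call the first pair untreated and the second treated. As titled, the 2 replicates of a treatment differed by a median of 0.73 and 0.74 over the 9 members, against 0.07 and 0.04 for the IgG arrays.

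**Figure D4:**
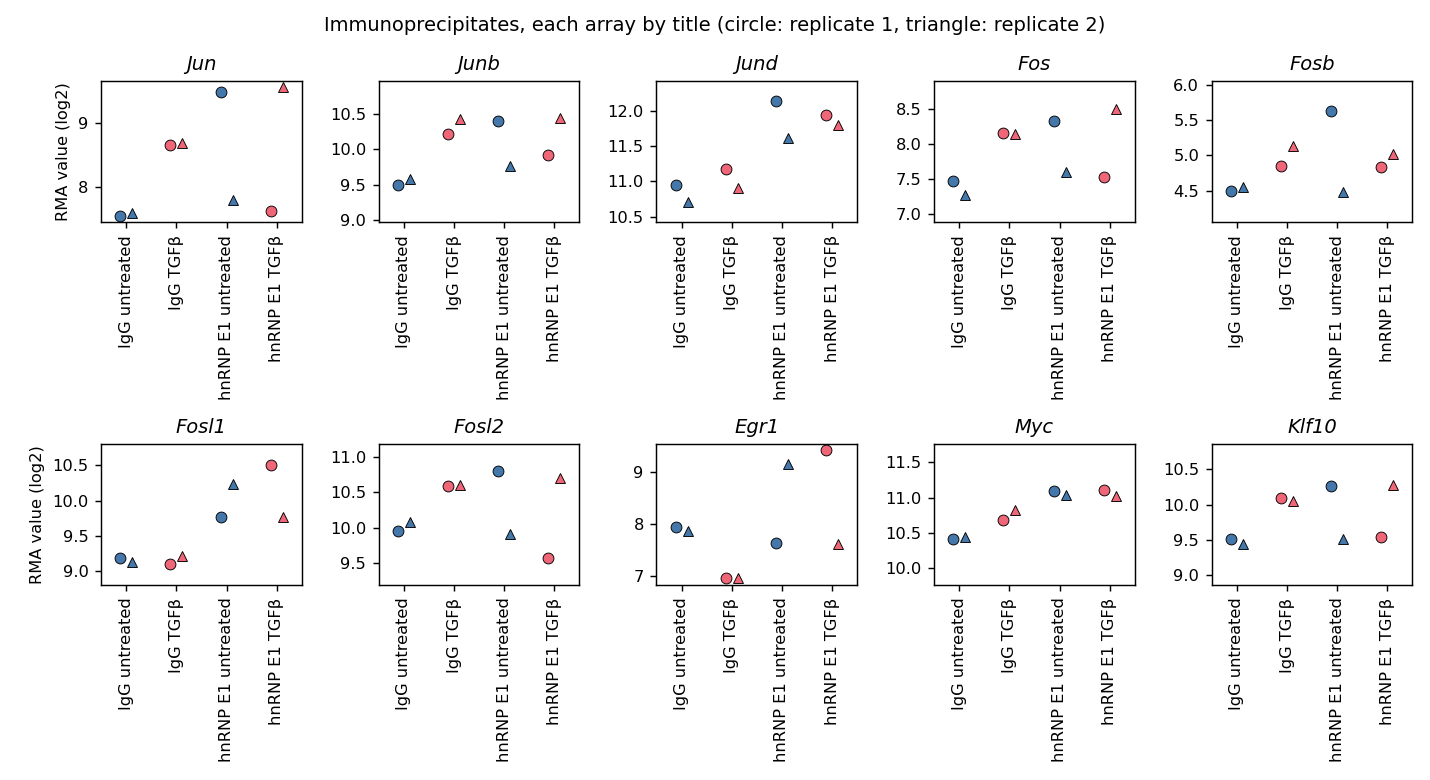
Level (RMA value, log2, vertical axes with their own range per gene) of the 10 factors in IgG and hnRNP E1 immunoprecipitates of untreated (blue) and TGFβ-treated (red) NMuMG cells, by the titles of the arrays, with replicate 1 as circles and replicate 2 as triangles. For Jun, Egr1 and Klf10 the untreated circle and the treated triangle of hnRNP E1 stand together, apart from the other two.

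Over both treatments, where the size of the difference does not depend on which treatment an hnRNP E1 array had but its p does, 3 members were higher in the hnRNP E1 than in the IgG precipitate, where 15.9% of all genes were higher and 10.9% lower. Jund read 12.13, 11.61, 11.94 and 11.80 with hnRNP E1 and 10.94, 10.71, 11.18 and 10.91 with IgG, a difference of 0.94 (standard error 0.14, adjusted p = 0.00381), with no overlap. Fosl1 read 9.77, 10.24, 10.51 and 9.77 with hnRNP E1 and 9.18, 9.13, 9.10 and 9.21 with IgG, a difference of 0.92 (standard error 0.17, adjusted p = 0.00943). Myc read 11.09, 11.04, 11.11 and 11.03 against 10.42, 10.45, 10.69 and 10.83, a difference of 0.47 (standard error 0.07, adjusted p = 0.00493). Both also stood apart without overlap. The second probe sets of Jund and Fosl1 gave 0.052 and 0.44, and neither passed (adjusted p = 0.707 and 0.211), so these calls rest on 1 probe set each. Egr1 differed by 1.03 and did not pass as titled (adjusted p = 0.131). With the arrays grouped by the sample descriptions 6 members passed, the same 3 and Egr1 (adjusted p = 3.82e-05), Jun (0.49, adjusted p = 0.000512) and Fos (0.23, adjusted p = 0.033). Centred on Actb and Gapdh, which moved the median of all probe sets by -0.52, none of the 3 passed, at 0.42 for Jund, 0.40 for Fosl1 and -0.05 for Myc.

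The change with TGFβ within a precipitate depended on the labels. As titled, no member and none of 12600 genes passed in the hnRNP E1 precipitate (limma, 155 genes at an unadjusted p under 0.05), and no member passed in the IgG precipitate, where 1 gene did and 932 had an unadjusted p under 0.05. The titled grouping gives a wide spread, which the IgG conditions share in the fit. Grouped by the sample descriptions, 7 members passed in the hnRNP E1 precipitate: Jun (-1.82, adjusted p = 1.08e-05), Fosl2 (-1.01), Fos (-0.85), Klf10 (-0.74) and Junb (-0.58) were lower with TGFβ and Egr1 (1.68, adjusted p = 2.04e-05) and Fosl1 (0.60) higher. In the IgG precipitate of the same fit Jun (1.10), Junb (0.79), Fos (0.78), Klf10 (0.60) and Fosl2 (0.58) were higher and Egr1 (-0.95) lower. For Jun, Junb, Fos, Klf10, Fosl2 and Egr1 the sign in the hnRNP E1 precipitate was thus opposite to that in the IgG precipitate under the descriptions. For Klhl30 and Il33, given above, the pair described as untreated lay on the side of the treated arrays of total RNA and IgG. Whether the titles, the descriptions or neither are right was not tested. No direction of the change with TGFβ in the hnRNP E1 precipitate is drawn from these arrays.

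The genes around these factors were followed in 7 lists. The lists were chosen with results of these arrays known, so their counts are descriptions. Over all genes 3.46% rose and 2.95% fell in NMuMG total RNA, and 11.7% and 11.4% in that of E1KD cells. Of the 14 AP-1 partners kept, such as the ATF, Maf and Creb proteins, 1 rose and 2 fell in NMuMG total RNA with TGFβ, and none rose and 6 fell in E1KD cells (medians -0.01 and -0.25). Atf3, a stress-induced partner of Jun, rose by 0.77 in NMuMG cells and fell by 3.06 (a change of -3.065) in E1KD cells, with a difference between the responses of -3.83 (standard error 0.17, adjusted p = 5.77e-10). Maf (-1.39) and Maff (-0.75) fell in NMuMG cells, and Nfe2l1 (-1.005), Atf4 (-0.90) and Mafk (-0.90) fell in E1KD cells. Of 16 genes of the MAP kinase and SRF input, 1 rose (Mrtfa, 0.64) and 1 fell (Map3k1, -0.58) in NMuMG cells, and 1 rose (Elk3, 1.25) and 1 fell (Srf, -0.58) in E1KD cells. The polysome shift was positive for 10 and negative for 2 of these 16 in NMuMG cells, with a median of 1.22 beside 0.04 for all genes (41.3% positive, 33.8% negative), and positive for 5 and negative for none in E1KD cells (median 0.42; 23.2% and 9.43% of all genes). Rps6ka3 (2.69), a kinase downstream of Erk, and Elk3 (2.52), an SRF partner, had the largest shifts of that list in NMuMG cells.

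Of 32 other immediate early genes kept, 7 rose and 1 fell in NMuMG cells and 7 rose and 11 fell in E1KD cells (medians -0.04 and -0.14). Rhob rose in both lines, by 1.54 and 1.03, while Gadd45a rose by 1.07 in NMuMG cells and fell by 1.23 (a change of -1.225) in E1KD cells, a difference of -2.30 (adjusted p = 2.46e-07). In untreated E1KD cells 12 of the 32 were higher and 7 lower than in NMuMG cells, beside 17.8% and 15.1% of all genes, led by Cebpd (3.23) and Csrnp1 (2.07). Their polysome shift was positive for 16 and negative for 9 in NMuMG cells, near the 41.3% and 33.8% of all genes, among them Sgk1 (3.59) and Ptgs2 (3.12), and positive for 11 and negative for 1 in E1KD cells, beside 23.2% and 9.43%. Of 13 AP-1 target genes 1 rose and 5 fell in NMuMG cells, and 4 rose and 5 fell in E1KD cells. Mmp13, a collagenase, fell in both lines (-1.53 and -3.38) and Timp1, an inhibitor of such proteases, rose in both (0.79 and 0.55).

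Of the 9 genes of the Max network, none passed in NMuMG cells and 1 (Mxd3, 0.88) rose in E1KD cells. Of 18 Myc target genes 3 fell in NMuMG cells (Ccnd2, Ldha and Srm, from -0.55 to -0.37) and 3 rose and 1 fell in E1KD cells, with Ldha at -0.43 and 0.53 in the 2 lines and a difference of 0.95 (adjusted p = 8.27e-05). In the hnRNP E1 precipitate 10 of these 18 were higher than with IgG and none was lower, beside 15.9% and 10.9% of all genes. The list's median was 0.36 beside 0.01 for all genes. Nolc1 (0.93) and Mybbp1a (0.81), both nucleolar proteins, led the list. Centring on Actb and Gapdh moved the median of all probe sets here to -0.52, further than the list's median. The list was not counted under that centring. Of 10 Egr corepressors and Klf relatives, Klf12 rose (0.88 and 0.99) and Klf5 fell (-0.88 and -0.95) in both lines. Klf11, the closest relative of Klf10, fell in E1KD cells (-0.76), and its responses differed by -1.25 (adjusted p = 0.000507). The polysome shift of this list was positive for 8 and negative for 2 of 10 in NMuMG cells (median 1.36), beside 41.3% and 33.8% of all genes, with Nab1, a corepressor of Egr1, at 2.69 and Klf16 at -2.42.

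Likeness between genes was measured by Pearson's r over the means of the 12 conditions of total and fractionated RNA, which share arrays, scaling and fraction with each other. The genes most like Jun were Cdc42ep3 (0.952) and Rbfox2 (0.938), those most like Junb were Rcc1 (0.964) and Col7a1 (0.959), and those most like Fos were Hmgcll1 (0.954) and Trim26 (0.936). Klf10 went most closely with Ubxn2a (0.964) and Commd8 (0.955), and Fosl1 with Ppp6r1 (0.918) and 9930012K11Rik (0.902). Egr1 had no gene with r over 0.9, and the nearest were Cgas (0.831) and Bdh1 (0.829). Fosl2 (Aff1 at 0.983, Skil at 0.978), Myc (Qtrt2 at 0.98, Lrp6 at 0.978) and Jund (4930563E22Rik at 0.968, Arnt2 at 0.967) followed common patterns, with 695, 954 and 676 genes over 0.9. Among the members themselves the lowest r was that of Jund with Myc, -0.899.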

How the data were processed

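RNA of whole cells and gradient pools of both lines, and immunoprecipitated RNA of NMuMG cells, was hybridized by the authors to Affymetrix mouse arrays (32 arrays, 16 conditions). The deposited log2 values come from RMA, run by the authors in Affymetrix Expression Console; MAS5 is also named in the submitters' notes, and versions are not given in the sources used here. RMA includes a normalization between arrays, which can remove a shift shared by most transcripts; the array medians of the deposited values run from 5.36 to 5.70. The values were used as deposited. Conditions were taken from sample titles. The 64 control probe sets were left out, and 25432 probe sets passed the filter on low values; 22090 carry 1 gene symbol, by GEO's platform annotation.

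The 24 arrays of total and fractionated RNA and the 8 immunoprecipitation arrays were fitted apart with limma 3.58.1 in R 4.3.3 (means per condition, contrasts, eBayes, 2-sided), with Benjamini-Hochberg adjustment over the 25432 probe sets and a threshold of 0.05. A difference between lines is an interaction contrast. Genes stand by the probe set of highest mean over the 24 arrays. Simulated data had 2 arrays per condition and few of the 25432 probe sets changed. There the fit recovered 68% of changes of 1 (log2) and 100% of changes of 2 in the NMuMG response of total RNA. For the NMuMG polysome shift it recovered 30% and 92%. In the data 17894 probe sets passed for that shift, and the adjusted threshold is stricter when few pass. These recoveries therefore do not give the sensitivity on the data. The number of arrays limits the precision. Promoters came from RefSeq sequences of GRCm38.p6.

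The members and the gene lists were chosen with earlier results of these data known. All members were named, and from each list up to 4 genes of largest change past the threshold in a comparison. For each member the 2 genes of most alike pattern were named. Klhl30 and Il33 were named because the labels of 2 hnRNP E1 arrays conflict. Alternatives were no filter, quantile normalization, centring on Actb and Gapdh, a replicate block, 1 fit of all 32 arrays, only the arrays compared, the probe set of highest variance, the descriptions' labels and leaving out each array. Replicate numbers pair no samples in the labels. Joins, counts and plots used pandas 2.3.3, numpy 2.4.6 and matplotlib 3.10.9 under Python 3.11.15.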

Additional observations from a re-analysis of the deposited data

Results flagged for a closer look

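The response of total RNA to TGFβ differed between E1KD and NMuMG cells (E1KD minus NMuMG, interaction in limma, adjusted p under 0.05) for 5 of the 9 members tested, 3 higher and 2 lower, beside 6.32% and 6.83% of all genes. The difference was 3.19 for Egr1, which fell in NMuMG cells and rose in E1KD cells, and 1.26 for Fosl1. It was 0.69 for Junb, -1.11 for Jun and -1.11 for Jund. The Junb call was lost without the filter and after quantile normalization. Centred on Actb and Gapdh, the Jun and Jund calls were lost. The second probe set gave 0.53 for Jun, of opposite sign, and -0.25 for Jund, and neither passed (adjusted p = 0.313 and 0.854). That of Jund read under 5.52, the cut-off for low values, on every total RNA array and cannot decide the Jund call.

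The polysome shift was lower in E1KD cells in the same test for 4 of the 9 members and higher for none, beside 24.7% and 15.3% of all genes. The difference was -2.48 for Klf10, -1.98 for Jun, -1.97 for Fos and -1.29 for Fosl2. For Jun and Fosl2 the second probe set gave -0.65 and 0.79, and neither passed (adjusted p = 0.229 and 0.146). The Fosl2 call was also lost without the filter and after quantile normalization.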

How the results depend on the processing

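Over all comparisons 70 calls of members were made, and 38 held under every alternative run. Of 898 values of these calls under the alternatives, 776 kept their direction and call, 119 kept their direction only and 3 turned direction without passing: Fosl1 polysomal minus monosomal in NMuMG cells, at 0.072 untreated after quantile normalization and 0.065 with TGFβ when centred on Actb and Gapdh, and Myc in hnRNP E1 minus IgG, at -0.046 when so centred. The counts of members called moved by more than 1.5 times as follows. For the NMuMG response of total RNA 5 became 3 in 1 fit of all 32 arrays and 8 in a fit of only the arrays compared. For the E1KD response 4 became 7 when centred on Actb and Gapdh. For the difference of the responses 5 became 3 when so centred and 3 in the fit of 32 arrays. For polysomal minus monosomal in untreated E1KD cells 5 became 3 in both of these. For the E1KD polysome shift 5 became 2 after quantile normalization, 3 when centred and 2 in the fit of 32 arrays, and for the difference of the shifts 4 became 2 in the last. Under the descriptions' labels the count was 6 in place of 3 for hnRNP E1 minus IgG, 6 in place of 0 for the IgG precipitate and 7 in place of 0 for the hnRNP E1 precipitate. For the IgG precipitate it was also 1 when centred and 6 with only the arrays compared. The cause was not tested, save that fewer arrays, or arrays of the other experiment, change the estimate of the spread. The probe set of highest variance was the leading one for all 9 members.

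Without 1 array at a time, the counts ran from 3 to 4 and 2 to 3 for the NMuMG and E1KD responses, 3 to 4 for their difference, 5 to 6 for each comparison of the lines, 8 to 9 and 3 to 6 for polysomal minus monosomal in untreated and TGFβ-treated NMuMG cells, 4 to 5 and 5 to 6 for the same in E1KD cells, 6 to 8, 2 to 5 and 3 to 4 for the shifts and their difference, 3 to 4 for hnRNP E1 minus IgG, and stayed at 0 within each precipitate. With the replicate block, 69 of the 70 calls held; Egr1 polysomal minus monosomal in TGFβ-treated E1KD cells did not (0.38, adjusted p = 0.0534). The labels pair no samples by replicate number. Deviations of same-numbered arrays correlated at -0.383 to 0.323 over 66 pairs of conditions (median 0.065), over 0.1 in 21. Whether some conditions shared a batch by replicate number was not tested.

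Centring on Actb and Gapdh moved the median of all probe sets to 0.26 and 0.61 for the NMuMG and E1KD responses, 0.55 and 0.20 for the shifts and -0.52 for hnRNP E1 minus IgG, and with it the probe sets called for the E1KD response went from 2906 higher and 2479 lower to 14967 and 302. Quantile normalization moved the E1KD shift from 5324 higher and 1965 lower to 4180 and 3572, and the difference of the shifts from 3320 and 5966 to 4260 and 4672. It moved polysomal minus monosomal in untreated NMuMG cells from 7453 higher and 10648 lower to 8512 and 8514. The NMuMG shift went from 10198 and 7696 to 9000 and 8750. With only the arrays compared 3931 probe sets passed for the NMuMG response, beside 1382, and with the descriptions' labels 3737 passed for the hnRNP E1 precipitate, beside 0 (403 at an unadjusted p under 0.05).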
